A study of Callithrix jacchus with 20 samples.

Results

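Pre-ME that had been induced with Activin A (ActA) from marmoset cjiPSCs kept in cjPSCM was compared with pre-ME induced in the same way from cjiPSCs kept in TESR medium. The libraries were chosen by their labels, which give the starting medium and the induction. They were 4 of the 20 libraries of the series, 2 biological replicates per starting medium, and every gene of the table was used. The labels give DPZ_cjiPSC2 as the source of all 4, which the study calls DPZ_cjiPSC#2, a line of induced pluripotent stem cells reprogrammed from foetal fibroblasts of the common marmoset, so the comparison rests on 1 line. Both groups were induced for 24 h in the same basal medium with 100 ng/ml ActA, 3 µM of the GSK3 inhibitor CHIR and the ROCK inhibitor Y-27632. What differed was the medium before induction. TESR is the TeSR-E8 formulation for primed pluripotent cells, whereas cjPSCM is an N2B27-based medium with LIF, TGFβ, FGF2, vitamin C, CHIR and the inhibitors A419259 and IWR-1. As a reference, the same difference of media was computed in cjiPSCs before induction and in pre-ME induced for 24 h with CHIR and without ActA, each from 4 other libraries.

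Precursors of mesendoderm, or pre-ME, are an in vitro counterpart of epiblast cells at the onset of the primitive streak. WNT and NODAL/Activin signalling act together in this state to induce the T-box factors TBXT and EOMES and the homeobox factor MIXL1, and the cells begin to lose epithelial character and can turn to mesoderm, endoderm or, with BMP, to the germline. TBXT, EOMES and MIXL1 were therefore read as the defining markers of the labelled cell type. All 3 were detected in pre-ME of TESR origin, whereas TBXT was at 2 and 0 counts in pre-ME of cjPSCM origin.

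The number of reads on genes was 20036527 and 20718379 in the libraries of TESR origin and 14055654 and 8193936 in those of cjPSCM origin. A count of 3 in a library therefore stood for 0.145 to 0.379 CPM, that is reads scaled to the library's effective total, and this floor, like the counting intervals below, covers counting error only. Reads outside annotated genes made up 19.3% to 20.5%. The log2 difference between the 2 replicates had an SD over genes of 0.335 for TESR origin and 0.451 for cjPSCM origin. The sources name no sequencing batch and several kits for RNA isolation without saying which was used where, so starting medium, RNA kit and any batch cannot be told apart. Since these are bulk libraries, fewer cells of a type and less RNA per cell cannot be told apart either.

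Of 15797 genes tested, 424 were higher and 227 lower in pre-ME of cjPSCM origin. A gene was called at an adjusted p under 0.05 from edgeR's quasi-likelihood test with Benjamini-Hochberg adjustment and a log2 fold change beyond 2, and positive log2 fold changes stand for higher levels in cjPSCM origin. The called genes made up 2.68% (higher), 1.44% (lower) and 4.12% (either way) of the genes tested. Without the threshold on the fold change, 2085 genes were higher (13.2%) and 2243 lower (14.2%). The counts of list members below are to be read beside these shares and those of the called genes. The median log2 fold change of all genes tested was -0.02. Among the higher genes 85 differed by over 4 on the log2 scale, and among the lower genes 42 did. For 78 of the higher genes both TESR libraries held 3 counts or fewer, and for 73 of the lower genes both cjPSCM libraries did, so the fitted fold changes of these genes are not measurements of size. With each library left out in turn, the counts lay between 372 and 416 higher and between 158 and 200 lower. Such a fit holds no replicate in the group concerned, so its spread came from the other groups. A test against the fold threshold itself, edgeR's glmTreat, called 111 higher and 27 lower.

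**Figure D1:**
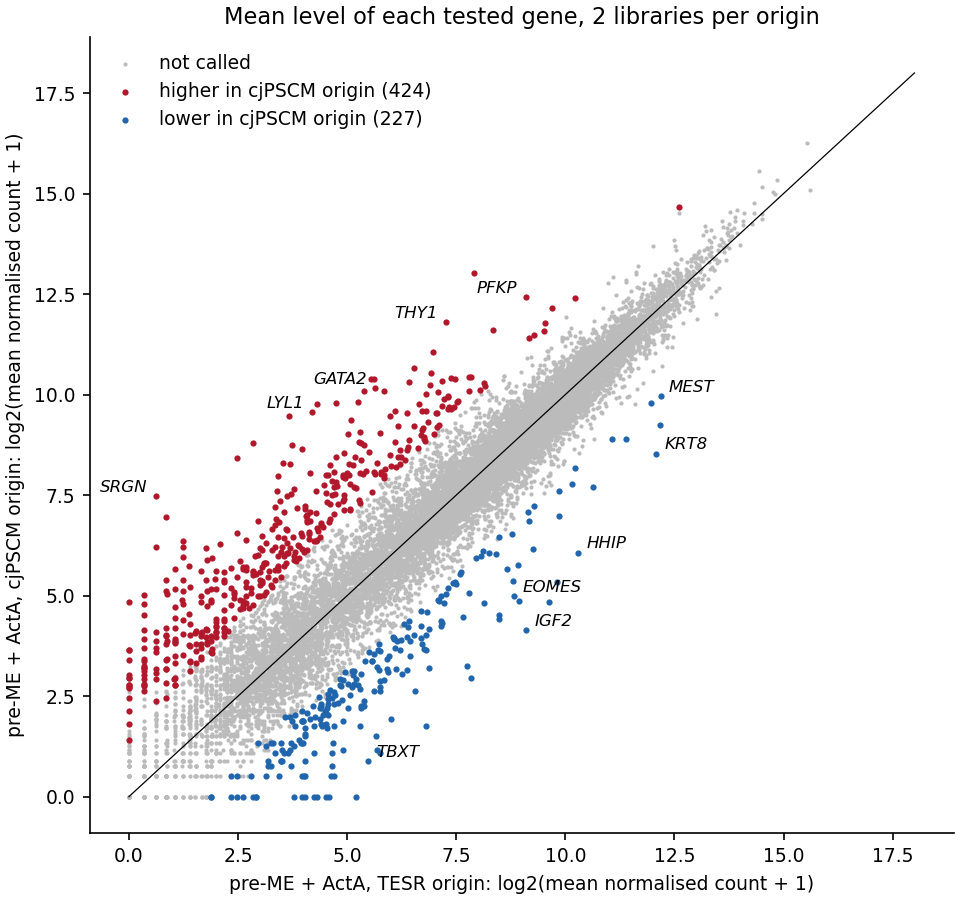
Mean level of each tested gene in pre-ME + ActA of TESR origin (horizontal axis) against cjPSCM origin (vertical axis), both as log2 of the mean normalised count of 2 libraries plus 1. Red points mark the 424 genes called higher and blue points the 227 called lower in cjPSCM origin, the line marks equal levels, and SRGN, THY1 and GATA2 lie far above it while EOMES, KRT8 and IGF2 lie far below it.

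The defining primitive streak genes were lower in pre-ME of cjPSCM origin. Of 15 members of the pre-ME marker list that were tested, 3 were called lower and 0 higher, and these 3 were the defining markers TBXT, EOMES and MIXL1. In cjiPSCs before induction 6 of the 15 were already called lower with cjPSCM and 0 higher. Of the 3 defining markers 2 were called lower there too, EOMES among them. The median log2 fold change of the 15 was -0.65, and at the adjusted p alone 6 were lower and 3 higher. TBXT, or BRACHYURY, the T-box factor of the primitive streak, was at 55.3 and 31.8 normalised counts in the TESR libraries and at 1.67 and 0 in the cjPSCM libraries. It was lower in cjPSCM origin by 41.8-fold (95% counting interval 11.4 to 348), computed on the summed counts, with an adjusted p of 0.00027. The libraries of both origins were far apart, although TBXT was a low gene in all of them. EOMES, a T-box factor of mesendoderm and of the primate germ cell programme, was at 641 and 267 in TESR origin and at 39.2 and 22.5 in cjPSCM origin. The log2 fold change was -3.84 ± 0.42 (SE derived from the test's F statistic, adjusted p = 6.9e-06). The TESR libraries differed from each other by over 2-fold, and both lay above both cjPSCM libraries. Where levels are set against each other in the following, both TESR libraries come first and both cjPSCM libraries second, in normalised counts unless counts are named. MIXL1, a homeobox factor induced by NODAL and BMP in the streak, was at 87.6 and 95.5 against 19.2 and 11.2, a log2 fold change of -2.54 ± 0.38 (adjusted p = 0.00015). SP5, a WNT target of the streak, was at 3195 and 3828 against 2743 and 1871 and passed the adjusted p (0.025) but not the fold threshold (-0.62). GSC, the homeobox factor of the anterior streak, was at 29 and 5 counts in TESR origin and 4 and 0 in cjPSCM origin and was not tested. Without replicate 2 of TESR origin, 5 instead of 3 members of the list were called lower.

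Of 23 tested early mesoderm genes 5 were called lower and 0 higher, with a median of -0.37, and at the adjusted p alone 8 were lower and 4 higher. The summed level of the list was higher in cjPSCM origin, at 34945 and 34049 against 56418 and 61344, most of it from VIM, the mesenchymal filament protein vimentin, which was singled out after its values were seen and was not called. HAND1, a bHLH factor of lateral and extraembryonic mesoderm, was at 111 and 55.2 in TESR origin and at 16.7 and 18.3 in cjPSCM origin. The log2 fold change was -2.26 ± 0.36 (adjusted p = 0.00028). ISL1, a LIM homeobox factor of the second heart field and of amnion, was at 934 and 918 against 126 and 126. Its libraries agreed closely within each origin and differed between the origins by -2.89 ± 0.19 (adjusted p = 3.8e-08). TBX1, a T-box factor of pharyngeal mesoderm, was at 393 and 420.4 against 56.7 and 42.1 (-3.03 ± 0.40, adjusted p = 4.8e-05). TCF21, a bHLH factor of visceral mesoderm, was at 106 and 108 against 16.7 and 7.02 (-3.07 ± 0.44), and APLNR, the receptor of apelin, at 167 and 99.8 against 27.5 and 29.5 (-2.25 ± 0.37). All 5 were lower in both libraries of cjPSCM origin. Other markers were not called. SNAI1, a repressor of CDH1 in epithelial-mesenchymal transition, was at 108 and 81.7 against 85.1 and 60.4, and PDGFRA, a receptor of nascent mesoderm, at 146 and 79.6 against 46.7 and 51.96, with log2 fold changes of -0.37 and -1.21, of which that of PDGFRA passed the adjusted p (0.015). Without replicate 1 of TESR origin, HAND1 and APLNR lost their calls and 3 members were called. HAND1 also lost it when the counts of all libraries were thinned to the shallowest of them.

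Some low HOX transcripts were lower or not detected in the cjPSCM libraries. Of 20 tested HOX genes, which encode the homeobox factors of axial position, 7 were called lower and 0 higher, and their median was -0.92. HOXC4, HOXC6, HOXC8 and HOXB6 had 0 counts in both cjPSCM libraries. In the TESR libraries HOXC8 had 46 and 39 counts, HOXC6 39 and 31, HOXC4 35 and 19 and HOXB6 22 and 25. Against a floor of 3 counts per library they were at least 6.91-fold, 5.69-fold, 4.40-fold and 3.81-fold lower in cjPSCM origin. HOXB9 was at 61 and 46 against 3 and 0 counts and HOXD9 at 29 and 28 against 1 and 0. HOXD4 was the most abundant of the 7, at 39.4 and 42.5 normalised counts in TESR origin and 4.17 and 4.21 in cjPSCM origin (log2 fold change -3.27 ± 0.60, adjusted p = 0.00096). The other 13 were not called, among them each tested HOXA gene, and the summed level of the list was 1591 and 1491 against 1485 and 1177. HOXA9 was at 329 and 302 against 243 and 178 and HOXA13 at 263 and 220.3 against 161 and 176. DESeq2 over all 20 libraries called HOXD4 and HOXB9 and gave no adjusted p for the other 5, whereas DESeq2 on the 4 libraries of the comparison called all 7. HOXD4, HOXB9 and HOXC8 were called with thinned counts, where the other 4 had too few reads to be tested. The TESR libraries were the deeper ones, and the part of depth in the calls on the lowest genes was not tested beyond this.

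KRT8 and KRT18, which form the keratin filaments of simple epithelia, were far lower in cjPSCM origin. KRT8 was at 5225 and 3423 normalised counts in TESR origin and at 529.8 and 209 in cjPSCM origin. Its log2 fold change was -3.54 ± 0.48 (adjusted p = 6.2e-05). KRT18 was at 5417 and 3809 against 805 and 400.3 (-2.94 ± 0.35, adjusted p = 1.5e-05). In both genes replicate 1 lay above replicate 2 in either origin, by less than the distance between the origins. DSP, the plaque protein desmoplakin of desmosomes, was at 5020.1 and 3024 against 1106 and 661 (-2.19 ± 0.38), and its call was lost without replicate 1 of TESR origin or replicate 2 of cjPSCM origin. These were the 3 called members of 21 epithelial genes tested, with 0 higher and a median of -0.86, and at the adjusted p alone 7 were lower and 1 higher. EPCAM, an epithelial adhesion molecule, was at 729 and 546 against 391 and 315 and was not called (-0.86). The summed level of the list was 24461 and 17366 in TESR origin and 9095 and 7328 in cjPSCM origin.

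Cadherins were called in both directions, with 2 of 19 tested members called higher and 2 lower and a median of -0.42. CDH1, the E-cadherin of epithelial and pluripotent cells, was at 38.3 and 39.8 in TESR origin and 5.84 and 1.40 in cjPSCM origin (-3.22 ± 0.38, adjusted p = 2.4e-05). For comparison, the cjiPSCs had 1710.5 and 2012 normalised counts with TESR and 2.83 and 4.45 with cjPSCM. CDH2, the N-cadherin of mesenchymal and neural cells, was at 4855 and 5385 against 2502 and 2157 and CDH3, or P-cadherin, at 850.4 and 767 against 269.5 and 163. Both were lower at the adjusted p alone (0.00015 and 0.0033) and did not reach the fold threshold. CDH5, the VE-cadherin of endothelium, was at 86.5 and 135 against 1116 and 955, higher by 3.21 ± 0.44 (adjusted p = 6.5e-05). CDH9 had 0 and 1 counts in TESR origin and 18 and 13 in cjPSCM origin. CDH18, lower with CDH1, was at 25.2 and 34.5 against 6.68 and 8.43 (-2.01 ± 0.51), and its call was lost with the size factors of DESeq2, without replicate 1 of cjPSCM origin or without replicate 2 of TESR origin, which left 1 lower call.

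**Figure D2:**
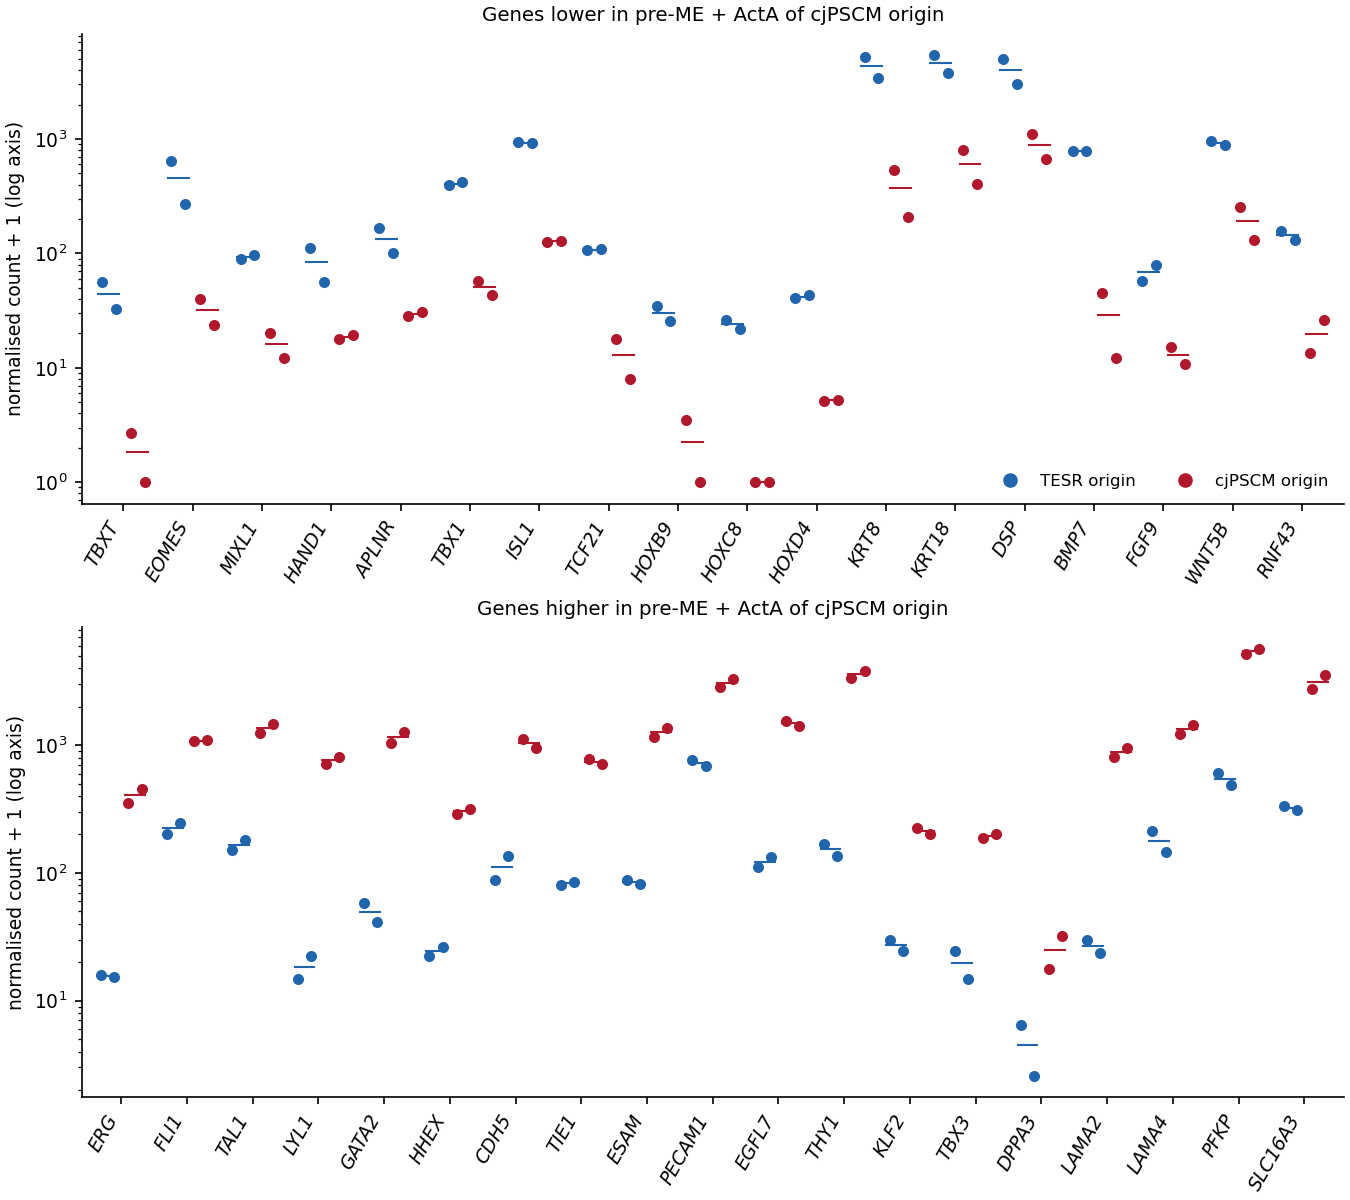
Normalised count plus 1 of named genes in each of the 4 libraries, on a log axis, with TESR origin in blue and cjPSCM origin in red. Points are libraries and bars are the means of 2. Genes called lower are drawn in the upper panel and genes called higher in the lower panel, so that EOMES and KRT8 lie lower and ERG and THY1 higher in cjPSCM origin, while members of their lists that were not called are not drawn.

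The list of WNT feedback genes and targets had 3 of 21 tested members called lower, 0 higher and a median of -0.55. At the adjusted p alone 8 of the 21 were lower and 1 higher, beside 14.2% and 13.2% of all genes tested. RNF43, a ubiquitin ligase that removes Frizzled receptors, was at 158 and 130.03 in TESR origin and 12.5 and 25.3 in cjPSCM origin (-3.01 ± 0.42, adjusted p = 8.6e-05). The secreted antagonist DKK2 was at 71.7 and 84.4 against 25.9 and 11.2, and FRZB, another one, at 112 and 93.9 against 27.5 and 19.7. Their calls were less firm. FRZB was lost when any 1 of the 4 libraries was left out. DKK2 was lost without replicate 2 of either origin, with the size factors of DESeq2 and with edgeR on the 4 libraries of the comparison. AXIN2, the common readout of WNT/β-catenin activity, was at 2383 and 2366 in TESR origin and 2316 and 2149 in cjPSCM origin, and the libraries lay close together (-0.10, adjusted p = 0.59). NKD1, another feedback inhibitor, was at 5403 and 6988 against 5056 and 3505 and was not called. Among 14 tested WNT ligands 2 were called higher and 1 lower. WNT5B, a non-canonical ligand of the streak, was at 954 and 893 against 255 and 129 (-2.25 ± 0.27, adjusted p = 2.1e-05), and it missed the fold threshold without replicate 2 of cjPSCM origin. WNT5A was at 1121 and 1183 against 584 and 480.3 and passed the adjusted p (0.00012) but not the fold threshold. WNT7A was at 16.4 and 16.98 against 147 and 84.3 and WNT2 at 7.11 and 6.90 against 25.03 and 36.5, both higher in cjPSCM origin, and the call of WNT2 was lost without replicate 1 or 2 of TESR origin or replicate 2 of cjPSCM origin. WNT3 and WNT3A, the ligands tied to primitive streak and germ cell specification, were low in all 4 libraries. WNT3 was at 20.8 and 13.3 against 10.8 and 9.83 and WNT3A at 19.2 and 7.43 against 7.51 and 9.83.

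Of the NODAL and Activin genes 2 of 25 tested members were called, both higher, the median was 0.06, and at the adjusted p alone 7 were higher and 5 lower. INHBB, which encodes a subunit of Activin B, was at 23.5 and 13.8 in TESR origin and 122 and 140.4 in cjPSCM origin (2.79 ± 0.40, adjusted p = 0.00011). TGFB1, the ligand TGFβ1, was at 103 and 106 against 782 and 763 (2.87 ± 0.36, adjusted p = 2.8e-05). NODAL itself was at 564 and 228 against 224 and 53.4. Its replicates differed widely in either origin, and its log2 fold change of -1.49 passed the adjusted p (0.038) but not the fold threshold.

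BMP genes were called 4 times lower and once higher among 22 tested members, the list's median was -0.68, and at the adjusted p alone 9 were lower and 2 higher. BMP7, a secreted ligand, was among the genes of largest difference, at 781 and 788 in TESR origin and 44.2 and 11.2 in cjPSCM origin (-4.70 ± 0.42, adjusted p = 8.9e-07). BMP5 was at 59.7 and 52.5 against 5.84 and 7.02 (-3.15 ± 0.60). The receptor gene BMPR1B was at 133 and 148 against 35.9 and 25.3, and BMPER, an extracellular regulator of BMP, at 27.4 and 28.1 against 7.51 and 4.21. Without replicate 2 of cjPSCM origin BMPR1B and BMPER missed the thresholds, which left 2 calls. BMP6 went the other way, at 26.8 and 24.4 against 366 and 333 (3.75 ± 0.51, adjusted p = 6.8e-05). BMP4 was at 1404 and 1011 against 712 and 681 and its target ID1 at 1528 and 1144 against 970.4 and 749, both lower in the mean of cjPSCM origin and neither called.

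The FGF list had 4 of 27 tested members called lower, 0 higher and a median of -0.33, and all 4 were ligands. At the adjusted p alone 10 of the list were lower and 2 higher. FGF9 was at 55.8 and 78.6 in TESR origin and 14.2 and 9.83 in cjPSCM origin (-2.45 ± 0.35, adjusted p = 9.4e-05). FGF18 was at 134 and 226 against 44.2 and 32.3 and FGF2 at 61.3 and 31.3 against 11.7 and 7.02. FGF17 had 13 and 25 counts in TESR origin and 2 and 1 in cjPSCM origin. FGF9 kept its call in every alternative followed for single genes, among which glmTreat was not. With thinned counts 2 instead of 4 members were called. Fewer members were also called when any 1 of the 4 libraries was left out. FGF8, the FGF of the streak, was at 825 and 832 against 730.1 and 509.8 and was not called (-0.43). SPRY4 and DUSP6 are feedback inhibitors of ERK signalling. SPRY4 was at 2786 and 2803 against 1116 and 886, lower at the adjusted p (3.8e-05) but not by the fold threshold, and DUSP6 at 3134 and 3791 against 2969.6 and 2675.

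In the retinoic acid list 1 of 17 tested members was called higher and 1 lower, with a median of 0.04. CRABP1, an intracellular carrier of retinoic acid, was at 61.3 and 65.3 in TESR origin and 356 and 242 in cjPSCM origin, and STRA6, the membrane transporter of retinol, at 245 and 304 against 66.8 and 70.2. Both lay close to the fold threshold (2.23 and -2.02) and lost their calls without replicate 1 of cjPSCM origin, STRA6 also without replicate 2 of TESR origin. Of 20 NOTCH genes DLL4, a ligand of arterial endothelium, was called, with 0 and 7 counts in TESR origin and 21 and 10 in cjPSCM origin, and the call was lost without replicate 1 of either origin. HEY1, a NOTCH target, was at 405 and 419 against 370.5 and 351 and was not called. Of 16 LIF and STAT3 genes BCL3 was called, at 2.19 and 0.531 against 20.03 and 33.7 (4.15 ± 0.59, adjusted p = 9.2e-05). SOCS3, the feedback inhibitor of STAT3, was at 473 and 401 against 372 and 294 and was not called.

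The core pluripotency network was not called in either direction. Of 12 tested members 0 were called, 2 were higher and 2 lower at the adjusted p alone from edgeR's test, and the median was 0.30. NANOG was at 1052 and 1106 in TESR origin and 1406 and 1581 in cjPSCM origin (0.45 ± 0.26, adjusted p = 0.199). POU5F1, which encodes OCT4, was at 1647 and 1706 against 2915 and 3035 (0.81 ± 0.17, adjusted p = 0.0022), and SOX2 at 2318 and 2633 against 3378 and 3121 (0.38 ± 0.25). All 3 had a higher mean in cjPSCM origin by less than the fold threshold, and POU5F1 passed the adjusted p.

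Several genes of naïve and formative pluripotency were higher, with 5 of 13 tested members called higher, 0 lower and a median of 1.58. KLF2, a Krüppel-like factor of naïve pluripotency and of endothelium, was at 29.00 and 23.4 in TESR origin and 223 and 202 in cjPSCM origin (3.005 ± 0.33, adjusted p = 6.6e-06). TBX3, a T-box factor of naïve cells and amnion, was at 23.5 and 13.8 against 186 and 202 (3.36 ± 0.29, adjusted p = 6.5e-07). NLRP7 was at 13.1 and 7.43 against 70.9 and 75.8 (2.81 ± 0.34). PECAM1, an adhesion molecule of naïve cells and of endothelium, was already abundant in TESR origin, at 759 and 688 against 2839 and 3291. DPPA3, or STELLA, a gene of naïve and germ cells, was low, at 5.47 and 1.59 against 16.7 and 30.9. PECAM1 and DPPA3 lost their calls without replicate 2 of either origin, which left 3 members. KLF5 was at 229 and 163 against 167 and 183 and TFAP2C, which encodes AP2γ, at 32.8 and 20.7 against 63.4 and 78.6. Neither was called, although TFAP2C passed the adjusted p (0.035). The list of primed genes had 1 of 12 members called. THY1, or CD90, a surface marker of primed cells and of mesenchyme, was at 168 and 135 in TESR origin and 3343 and 3838 in cjPSCM origin, where it was higher by 4.55 ± 0.27 (adjusted p = 1.4e-08). The median of the list was -0.55. At the adjusted p alone 2 of its members were higher, THY1 and TCF7L1, and 3 lower, SOX11, FAT3 and VCAN, of which TCF7L1, FAT3 and VCAN are named after their values were seen. ZIC2 was at 1581 and 1326 against 1016 and 942 and SOX11 at 3273 and 4007 against 2611 and 1959, both lower in the mean and not called (adjusted p = 0.031 for SOX11).

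Of 16 tested PGC genes 2 were called higher, GATA2 and DPPA3, and 0 lower, with a median of 0.35. Without replicate 2 of either origin or with thinned counts DPPA3 was not called. GATA2, a zinc finger factor of amnion, primate germ cell induction and blood and endothelial progenitors, was at 56.9 and 40.3 in TESR origin and 1039.7 and 1263 in cjPSCM origin. The difference of 4.55 ± 0.26 (adjusted p = 1.3e-08) ranked among those of lowest adjusted p in the comparison. SOX17, the key germ cell and endoderm factor, was at 184 and 73.2 against 219 and 187, and the replicates of TESR origin differed by more than the origins. PRDM1, which encodes BLIMP1, was at 445 and 315 against 295 and 209. Neither was called (0.65 and -0.59). Amnion genes were called 2 higher and 2 lower of 13 tested, with a median of -0.59. GATA2 and TBX3 were the higher ones, and ISL1 and TFAP2B, an AP2 factor at 44.9 and 87.04 against 14.2 and 14.04, the lower ones, and TFAP2B lost its call without replicate 1 or 2 of cjPSCM origin or replicate 2 of TESR origin. GATA3, another amnion factor, was at 808 and 566 against 763 and 824 and TFAP2A at 14.2 and 17.5 against 24.2 and 15.4, and neither was called. Endoderm genes had 1 call in 11. HHEX, a homeobox factor of anterior endoderm and of haemato-endothelial progenitors, was at 21.3 and 25.5 against 288 and 316 (3.66 ± 0.33, adjusted p = 8.9e-07), whereas GATA6 was at 582 and 337 against 459 and 349.7 and FOXA2 at 3.28 and 2.65 against 2.50 and 5.62.

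Endothelial and haemato-endothelial genes were higher in pre-ME of cjPSCM origin. Of the 8 endothelial markers that were listed to check for other cell types, 5 were called higher, 0 lower, and the median log2 fold change was 2.77. Their summed level was 510.1 and 522 normalised counts in TESR origin and 3969 and 4163 in cjPSCM origin. ERG, an ETS factor of endothelium, was at 14.8 and 14.3 against 351 and 455 (4.76 ± 0.33, adjusted p = 6.3e-08). TIE1, an endothelial receptor tyrosine kinase, was at 79.9 and 83.9 against 781 and 706 (3.17 ± 0.32), ESAM, an endothelial adhesion molecule, at 87.6 and 81.2 against 1159.8 and 1374 (3.89 ± 0.31), and CDH5, given above, belonged to this list too. In each of these genes both cjPSCM libraries lay far above both TESR libraries. EMCN, or endomucin, was at 8.21 and 10.1 against 45.1 and 51.96, and its call was lost without replicate 1 or 2 of TESR origin. TEK, the receptor TIE2, was at 184 and 137 against 365 and 480.3 and passed the adjusted p (0.0009) but not the fold threshold. VWF, a defining marker of mature endothelium, was at 13.1 and 11.1 against 11.7 and 1.40 and was not called (-0.70).

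A broader list of 67 endothelial genes was put together after these values were seen, so its counts are a description. Of 64 tested members 33 were called higher and 1, APLNR, lower, the latter not without replicate 1 of TESR origin. The adjusted p alone gave 50 higher and 1 lower, and the median was 2.09. LYL1, a bHLH factor of blood and endothelial progenitors, was at 13.7 and 21.2 in TESR origin and 706 and 810.3 in cjPSCM origin (5.41 ± 0.38, adjusted p = 8e-08). TAL1, another factor of haemato-endothelial specification, was at 149.95 and 179 against 1237 and 1463 (3.02 ± 0.28, adjusted p = 1.4e-06). FLI1, another ETS factor, was at 199 and 245 against 1078 and 1094 (2.27 ± 0.25). EGFL7, a secreted vascular protein, was at 109 and 132 against 1554 and 1419.8 (3.61 ± 0.22, adjusted p = 1.8e-08). All of these genes had some transcripts in TESR origin. Receptors and signalling genes followed. ACVRL1, the BMP receptor ALK1, was at 27.4 and 17.5 against 247 and 265, EPAS1, the hypoxia-inducible factor HIF2α, at 146 and 141 against 1103 and 1497, and APLN, the ligand of APLNR, at 241 and 212 against 1373 and 1419.8. APLN was thus higher in cjPSCM origin while its receptor gene was lower. Not every endothelial gene was called. KDR, the VEGF receptor VEGFR2, was at 1451 and 1866 against 2688 and 2788, FLT4 at 310.3 and 295 against 325 and 268, and ETV2, the pioneer factor of the lineage, at 7.11 and 12.7 against 7.51 and 12.6, and none was called, although KDR passed the adjusted p (0.011). SELP had 0 counts in all 4 libraries. The list's higher calls lay between 28 and 32 with DESeq2 or with 1 library left out, and 29 with thinned counts.

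Markers of blood cells were mixed. TAL1 and ITGA2B, the integrin CD41 of megakaryocytes and of early haematopoietic cells, were called higher among 6 tested, and the summed level of the list was 664 and 774 in TESR origin and 2557 and 2628 in cjPSCM origin. ITGA2B was at 4.38 and 8.49 against 70.9 and 53.4 (3.25 ± 0.38, adjusted p = 1.4e-05). The defining markers of mature blood cells were nearly absent. PTPRC, or CD45, had 1 and 2 counts in TESR origin and 1 and 0 in cjPSCM origin, GATA1 2 and 1 against 1 and 0, and SPI1 0 and 0 against 3 and 1. Of 9 fibroblast markers LUM was called higher, at 20.8 and 19.1 against 65.9 and 107, a call that was lost without replicate 2 of either origin, and the summed level of that list did not separate the origins (8469 and 8353 against 8375 and 7623). COL1A1, a main fibroblast collagen, was at 2236 and 1515 against 1228 and 769.6. Of 6 cardiac markers TNNT2 and MYL4 were called lower, both lost in single omissions, and NKX2-5 had 3 and 0 against 0 and 0 counts. The liver and yolk sac markers AFP and TTR were at 0 in all 4 libraries, the trophoblast marker GCM1 was at 0 as well, and ELF5 had 1 count or fewer in each. Summed levels were 411 and 286 against 289 and 249 for the cardiac, 153 and 154 against 95.96 and 82.9 for the trophoblast and 105 and 70.1 against 95.96 and 57.6 for the liver and yolk sac list. Whether a share of cells of another type contributed to the differences above was not tested.

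**Figure D3:**
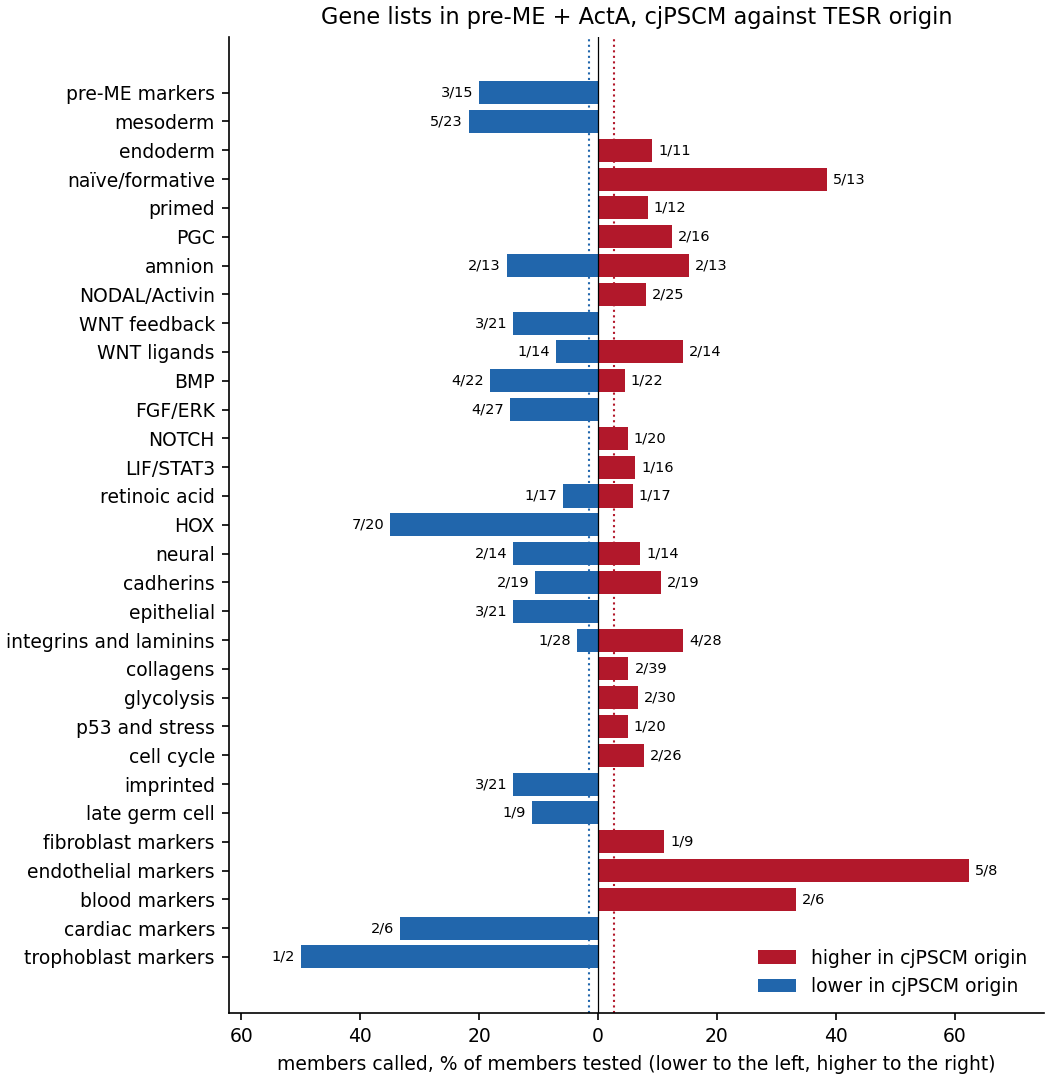
Share of the tested members of each gene list that was called higher (red, to the right) or lower (blue, to the left) in pre-ME + ActA of cjPSCM origin, in percent, with the number called over the number tested beside each bar. Dotted lines mark the shares among all genes tested, 2.68% higher and 1.44% lower, and lists without a call are left out. The endothelial markers reach 5 of 8 to the right and the HOX genes 7 of 20 to the left.

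Of 28 integrin and laminin genes 4 were called higher and 1 lower, with a median of 0.22, and at the adjusted p alone 9 were higher and 2 lower. Among all genes tested 2.68% were called higher and 13.2% were higher at the adjusted p alone. LAMA2, the laminin α2 chain of muscle and vessels, was at 29.00 and 22.8 in TESR origin and 802 and 955 in cjPSCM origin (5.06 ± 0.33, adjusted p = 3.8e-08). LAMA4, the laminin α4 chain of endothelium, was at 211 and 144 against 1229.9 and 1447 (2.90 ± 0.21, adjusted p = 1.2e-07). LAMA1, the α1 chain of the early embryo, was at 3799 and 3980.1 against 3657 and 3264 and was not called (adjusted p = 0.44). The remaining higher genes ITGA4 and LAMC3 lost their calls with thinned counts, which left 2. Both also lost them without replicate 2 of TESR origin, and LAMC3 without replicate 1 of cjPSCM origin. ITGB8, an integrin that activates TGFβ, was lower, at 200.3 and 182 against 47.6 and 43.5 (-2.07 ± 0.20). ITGA6, the integrin INTα6, was at 732 and 726 against 1259 and 1715, and the chemokine receptor CXCR4 at 169.7 and 287 against 82.6 and 88.5. Both passed the adjusted p but not the fold threshold. Of 39 collagens COL4A1 and COL19A1 were called higher and 0 lower, with a median of -0.32 and a summed level of 41286 and 41599.7 against 83005 and 77238, and at the adjusted p alone 8 were higher and 5 lower. COL4A1, the main collagen of basement membranes, was at 6763 and 5741 against 26173 and 26217 (2.05 ± 0.22, adjusted p = 4.9e-06), close to the threshold and below it without replicate 2 of TESR origin. This gene alone made up a large part of the gap in the summed level of the collagens.

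Among 30 glycolysis genes PFKP and SLC16A3 were called higher, 0 lower, and the median was 0.20. At the adjusted p alone 7 were higher and 4 lower. Among all genes tested 2.68% were called higher and 1.44% lower. At the adjusted p alone 13.2% of them were higher and 14.2% lower, and these shares also stand beside the other lists of this paragraph. PFKP, the platelet isoform of phosphofructokinase, was at 600.3 and 489.9 in TESR origin and 5219 and 5712 in cjPSCM origin (3.31 ± 0.24, adjusted p = 8.3e-08). SLC16A3, the lactate exporter MCT4, was at 333 and 312 against 2765 and 3518 (3.27 ± 0.21, adjusted p = 3.1e-08). SLC2A1, the glucose transporter GLUT1, was at 4032 and 4152 against 3648 and 2979 and was not called. Of 20 genes of p53 and stress 1 was called and of 26 cell cycle genes 2, all higher. CDKN1A, a member of both lists that encodes the cell cycle inhibitor p21, was at 159 and 128 against 782 and 899, higher by 2.53 ± 0.31 (adjusted p = 2.2e-05). CDKN2C, the cell cycle inhibitor p18, was at 2.19 and 6.37 against 17.5 and 23.9 and lost its call without replicate 2 of cjPSCM origin or replicate 1 of TESR origin, which left 1 cell cycle gene. The genes of proliferating cells MKI67 and CDK1 were at 4619 and 4566 against 7121 and 6728 and at 1196 and 1201 against 733 and 822, the former with a higher and the latter with a lower mean. Neither was called, and CDK1 passed the adjusted p (0.0045). Of 9 DNA methylation genes 0 were called, with 2 lower at the adjusted p alone. DNMT1 was at 3177 and 3261 against 3812 and 3234. Imprinted genes were called 3 of 21 times lower and 0 higher, with a median of -0.58, and at the adjusted p alone 9 were lower and 3 higher. IGF2, a foetal growth factor expressed from the paternal allele, was at 547 and 545 against 19.2 and 14.04 (-5.00 ± 0.34, adjusted p = 6.3e-08), and MEST, also paternally expressed, at 4668 and 4629.7 against 1164 and 843 (-2.22 ± 0.21, adjusted p = 2e-06). ZIM2 had 6 and 4 against 0 and 0 counts, and its call was lost with DESeq2, with thinned counts and without any 1 of the 4 libraries. PEG3 was at 8103 and 7317 against 4867 and 4605 and passed the adjusted p (0.037) but not the fold threshold.

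The genes with the widest gap between the origins were ranked by the lowest library of the higher group over the highest library of the lower group, in CPM and with a library of fewer than 3 counts set to 3 counts. SRGN, the proteoglycan core serglycin of blood and endothelial cells, headed the higher genes with 1 and 1 counts in TESR origin and 152 and 163 in cjPSCM origin. Apart from this ranking, its ratio of summed counts, scaled to the effective library totals, was 303-fold (95% counting interval 83.2 to 2513). CBFA2T3, a corepressor of blood progenitors that binds TAL1, had 2 and 1 against 138 and 94 counts, and CAJA-E, a marmoset class I MHC gene with close homologues among which reads can be split, 0 and 2 against 83 and 54. FXYD5, a regulator of the sodium pump, was at 7.66 and 4.78 against 406 and 480.3 normalised counts (6.12 ± 0.48, adjusted p = 2.3e-07). SOSTDC1, a secreted antagonist of BMP and WNT, was at 13.7 and 9.55 against 541 and 872 (5.89 ± 0.41, adjusted p = 6.7e-08). The neuronal genes LRRTM1, GAD2 and SLC17A8 belonged to this set too. SLC17A8, a vesicular glutamate transporter, was at 22.4 and 15.4 against 621 and 1107, and GAD2, the glutamate decarboxylase GAD65, at 2.19 and 0.531 against 78.4 and 82.9. TMEM273 was at 10.4 and 14.3 against 386 and 465, and ABCG1, a cholesterol transporter, had 3 and 1 against 53 and 39 counts. LYL1 and LAMA2 completed the 12.

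The 12 lower genes of widest gap held several secreted factors and homeobox genes. TGFA, a ligand of the EGF receptor, was at 112 and 109 in TESR origin and 3.34 and 1.40 in cjPSCM origin (-5.37 ± 0.65, adjusted p = 2e-05). SPP1, or osteopontin, was at 977 and 806 against 39.2 and 39.3 (-4.52 ± 0.25, adjusted p = 1.3e-08), and HHIP, the Hedgehog-interacting protein, at 1278 and 1234 against 69.3 and 63.2 (-4.25 ± 0.34, adjusted p = 2.4e-07). In each of these the TESR libraries agreed closely with each other. CXCL12, the ligand of CXCR4, was at 106 and 127 against 6.68 and 9.83 (-3.87 ± 0.45). Factors of neural lineages belonged to this set. POU4F2 was at 208 and 217 against 10.01 and 7.02. EBF2 was at 64.03 and 63.2 against 4.17 and 1.40 and NKX2-2 at 62.4 and 42.99 against 0.834 and 1.40. LRRC17 was at 299.9 and 412 against 26.7 and 14.04 and TRPM3, a cation channel, at 199.8 and 202 against 20.9 and 21.1. Neural genes as a list had 1 of 14 members called higher and 2 lower. SOX21 was higher, at 103 and 80.7 against 1554 and 1671 (4.12 ± 0.28, adjusted p = 5.5e-08), and PAX6, lower with NKX2-2, was at 41.04 and 36.6 against 7.51 and 7.02 and lost its call without replicate 1 of cjPSCM origin.

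The difference between the origins was set beside the difference between the media before induction. In cjiPSCs 871 genes were higher (5.51% of those tested) and 579 lower (3.67%) in cjPSCM. Of the 424 genes higher in pre-ME + ActA of cjPSCM origin, 321 (75.7%) were also called higher in the cjiPSCs, which is 36.9% of the genes called there. Of the 227 lower genes 131 (57.7%) were also called lower there, or 22.6% of those called there, and 2 and 5 were called the opposite way. No library is shared between these comparisons. The endothelial genes were among those shared, since 28 of the 33 higher members of the broad list were called higher in cjiPSCs too. ERG was at 45.2 and 49.1 in cjiPSCs kept with TESR and 1553 and 921 with cjPSCM, GATA2 at 32.5 and 59.6 against 948 and 652, and THY1 at 874 and 1243 against 12832 and 7124. Among genes called in cjiPSCs, 545 of the higher and 446 of the lower were not called after induction. The genes called in cjiPSCs had median log2 fold changes of 2.95 (higher) and -2.86 (lower) there and of 1.62 and -1.25 in pre-ME + ActA. The genes called in pre-ME + ActA had medians of 2.89 and -2.76 there and of 3.07 and -2.69 in cjiPSCs. Each set was chosen by its fold at one stage, so its medians at both stages are not a test of a change.

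Pre-ME induced without ActA gave 424 genes higher (2.68%) and 193 lower (1.22%) in cjPSCM origin. Of the 424 genes higher with ActA 274 (64.6%) were also higher without it, and of the 227 lower genes 103 (45.4%) were also lower, which is 64.6% and 53.4% of the genes called without ActA, with 0 called the opposite way. In all 3 settings 233 genes were higher and 86 lower. The medium difference was called in neither of the other settings for 62 of the higher and 79 of the lower genes, which does not show that it was absent there. TBXT was at 14.8 and 7.95 in TESR origin and 0.590 and 0.991 in cjPSCM origin without ActA, EOMES at 169 and 142 against 8.84 and 3.96, and KRT8 at 2909.9 and 1528 against 546 and 321.

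**Figure D4:**
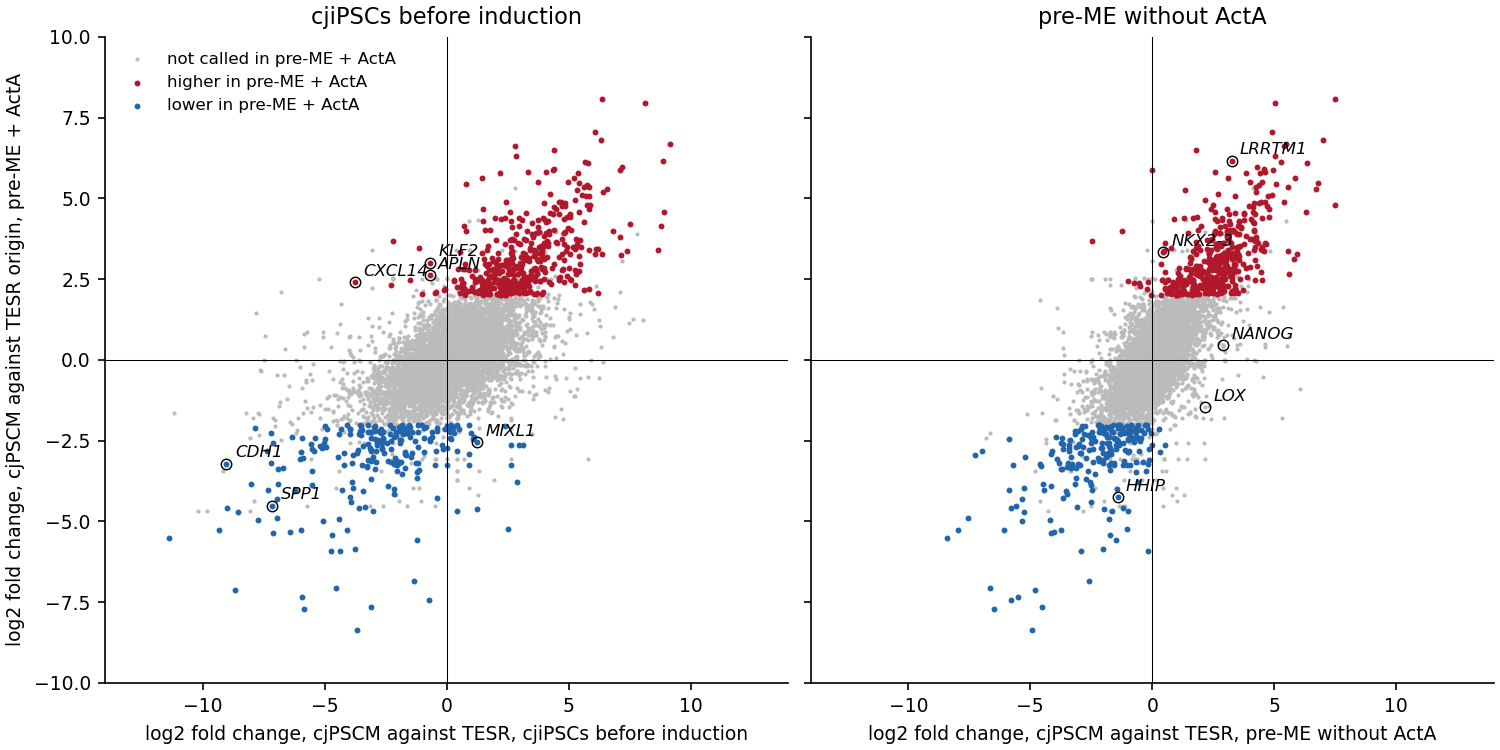
Log2 fold change between cjPSCM and TESR origin in pre-ME + ActA (vertical axis) against the same difference in cjiPSCs (left) and in pre-ME without ActA (right), for each gene tested. Red and blue points were called higher and lower in pre-ME + ActA, grey points were not, and circles mark named genes such as MIXL1 and KLF2, which differ in sign between the 2 axes of the left panel.

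Whether the medium difference itself changed was tested as an interaction at an adjusted p under 0.05 from edgeR's quasi-likelihood test. Between cjiPSCs and pre-ME + ActA the log2 difference became larger, that is more positive, for 474 genes and smaller for 505, together 6.2% of the genes tested. Leaving out any of the 8 libraries except replicate 2 of the cjiPSCs in TESR medium moved these counts by over 1.5 times, to between 171 and 1074 larger and 190 and 1158 smaller. Reads outside annotated genes made up 10.6% to 19.3% in the cjiPSC libraries, against 19.3% to 20.5% in pre-ME + ActA, and the TMM factors, which scale the library totals, were 0.828 to 0.968 against 0.945 to 1.00. The part of these in the interactions was not tested. MIXL1 was at 4.41 and 1.49 in cjiPSCs kept with TESR and 10.4 and 5.93 with cjPSCM. Its difference was not called there, and the interaction was -3.77 ± 0.71 on the log2 scale (adjusted p = 0.0045). For HAND1 the cjiPSCs had 9.92 and 10.4 against 14.1 and 10.4 and the interaction was -2.56 ± 0.69 (adjusted p = 0.037). WNT5B was at 129 and 136 against 168 and 122 in cjiPSCs, with an interaction of -2.38 ± 0.40 (adjusted p = 0.0019). None of these 3 genes was called in the cjiPSCs, and all reached higher levels in pre-ME + ActA of TESR origin than in that of cjPSCM origin. KLF2 and APLN gave interactions of the opposite sign. KLF2 was at 157 and 261 against 167 and 84.5 in cjiPSCs and its interaction was 3.70 ± 0.44 (adjusted p = 0.00014). APLN was at 1869 and 4839 against 2846 and 1256 (3.32 ± 0.50, adjusted p = 0.000898). The libraries of both media overlapped in the cjiPSCs, and both genes were lower in pre-ME + ActA of TESR origin than in that of cjPSCM origin.

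For other genes the difference between the media shrank over the induction with ActA. GATA6 was at 136 and 182 in cjiPSCs kept with TESR and 2821 and 2232 with cjPSCM, and with an interaction of -4.19 ± 0.40 (adjusted p = 2.8e-05) it ended at overlapping levels in pre-ME + ActA. Without ActA it was at 132 and 82.8 against 421 and 388. That passed the adjusted p of edgeR's test (0.00015) but not the fold threshold (1.92). The interaction of GATA6 between the inductions with and without ActA was -2.11 ± 0.39 (adjusted p = 0.023). KLF5 was at 54.5 and 118 against 1290.5 and 768 in cjiPSCs (-3.86 ± 0.50, adjusted p = 0.00027), and DCN, the proteoglycan decorin, at 125 and 101 against 1536 and 875 (-2.40 ± 0.39, adjusted p = 0.0017). Without ActA KLF5 was at 59.8 and 35.6 against 180 and 230 and was called higher in cjPSCM origin. EOMES kept a lower level in cjPSCM throughout. It was at 329 and 536 against 4.71 and 1.48 in cjiPSCs, and the interaction of 3.10 ± 0.82 (adjusted p = 0.033) stands for a narrower gap after induction. The interaction of CDH1 was 5.82 ± 0.79 (adjusted p = 0.00045), and its levels in either origin are given above.

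Between the inductions with and without ActA the medium difference was larger for 25 genes and smaller for 38 (0.399% of those tested), and 2747 genes had an unadjusted p under 0.05. DESeq2 gave 149 and 185. Leaving out any 1 of the 8 libraries moved at least one of these counts by over 1.5 times, and the range was 2 to 28 larger and 4 to 25 smaller. NANOG was at 117 and 119 in TESR origin and 758 and 988 in cjPSCM origin without ActA, and at 1052 and 1106 against 1406 and 1581 with ActA. The interaction was -2.44 ± 0.38 (adjusted p = 0.011), and the low value was that of TESR origin without ActA. LOX, the lysyl oxidase that cross-links collagen, was at 133 and 226 against 744 and 872 without ActA and at 3239 and 5056 against 1419 and 1636 with it, so that the order of the origins turned (-3.62 ± 0.46, adjusted p = 0.00402). NKX2-3, a homeobox factor of mesoderm and vessels, was at 27.98 and 16.4 against 29.5 and 30.7 without ActA and at 102 and 133 against 1133 and 1288 with it (2.89 ± 0.49, adjusted p = 0.015). Among these 4 groups its libraries were highest in cjPSCM origin with ActA, followed by those of TESR origin with ActA, and lower in both origins without ActA. HHIP was at 224 and 256 against 83.1 and 97.1 without ActA and at 1278 and 1234 against 69.3 and 63.2 with it (-2.83 ± 0.45, adjusted p = 0.012). RARB, a retinoic acid receptor, was at 464 and 568 against 634 and 564 without ActA and at 638 and 733 against 396 and 341 with it (-1.12 ± 0.21, adjusted p = 0.026).

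**Figure D5:**
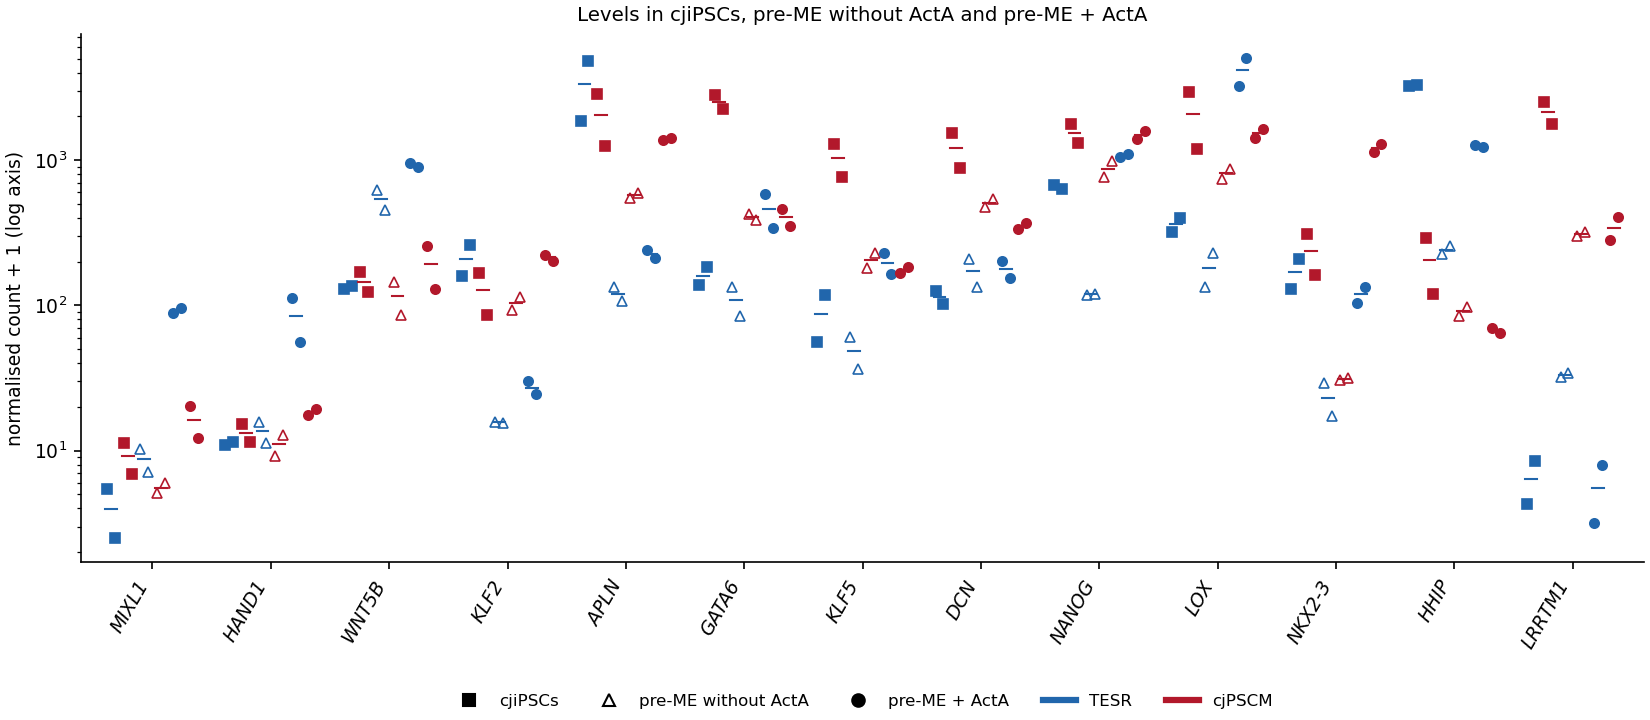
Normalised count plus 1 on a log axis in the 2 libraries each of cjiPSCs (squares), pre-ME without ActA (triangles) and pre-ME + ActA (circles), for TESR (blue) and cjPSCM (red). Bars are means of 2 libraries. MIXL1, HAND1 and WNT5B separate by origin after induction with ActA, and NKX2-3 stands high in cjPSCM origin with ActA. GATA6 and KLF5 lose their separation with ActA, whereas without it both lie higher in cjPSCM origin.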

How the data were processed

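Poly(A) RNA of 4 pre-ME libraries and, as a reference, of 8 others was compared by starting medium, as the labels give it. Per the labels and the submitters' processing notes the authors checked reads with FastQC 0.11.8, mapped them with STAR 2.7.0a and counted them with HTSeq 0.11; the study names the assembly calJac4. They deposited raw counts per gene, which were tested, and a signal, the counts divided by DESeq2 size factors, here called normalised counts and used for levels. The annotation release and the strand setting are not given in the sources used here, so overlapping, antisense or near-identical genes can share reads. The lines of reads outside genes and of ambiguous reads were left out; they held 19.3% to 20.5% and 0.284% to 0.326% of the reads.

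For the main test edgeR 4.0.16 (R 4.3.3) was used, with TMM factors, filterByExpr and the quasi-likelihood fit, over all 20 libraries with 1 coefficient for each of 10 conditions, which left 10 residual degrees of freedom and 15797 of 25102 genes. Adjustment followed Benjamini and Hochberg, separately for each comparison. SE is the absolute fitted log2 fold change, with 2 libraries per group, divided by the root of the quasi-likelihood F statistic. It was thus derived from the test, whose spread came from all 20 libraries, and not taken from the fit. Near a fold change of 0 or with few counts it is not reliable. Where both libraries of a group held 3 counts or fewer, a ratio of summed counts with an exact 95% Clopper-Pearson interval stands for the fold change, and where they held 0 a lower bound against 3 counts per library. The script was tested on simulated data.

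Named were the 12 genes of widest gap each way, the defining and up to 6 called genes of each list, the 5 genes of largest interaction each way, genes the study names for pre-ME and genes in runs of neighbours; a few of these are not reported here. The members and lists were chosen with earlier results of these data known, and the broad endothelial list and its genes after the values were seen. A RefSeq table of the assembly calJac240_pri gave the order of genes, no coordinates and no sequences. Alternatives were DESeq2 1.42.0, other size factors, filters, glmTreat, a replicate block, thinned counts and each library left out. Single genes were followed through these except glmTreat. Interactions were followed through DESeq2 over all 20 libraries, no filter on low counts, the replicate block, thinned counts and omissions. Tables and plots used Python 3.11.15, pandas 2.3.3 and matplotlib 3.10.9.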

Additional observations from a re-analysis of the deposited data

Results flagged for a closer look

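The medium difference differed between stages, by a test of the interaction. Between cjiPSCs and pre-ME + ActA it became larger, that is more positive, for 474 genes and smaller, that is more negative, for 505. Between the inductions without and with ActA it was larger for 25 and smaller for 38. Either sign can stand for a gap between the media that narrowed. Pairs of levels set against each other are those of the 2 TESR and the 2 cjPSCM libraries. The genes named here had the largest fitted interactions, in log2 units. The fitted value of a gene with 0 counts in a group depends on the prior count of the fit and is no bound, so no order is read from these values. The causes were not tested.

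Between cjiPSCs and pre-ME + ActA the interaction of IL2RB was 9.27, with 31.4 and 14.9 normalised counts in cjiPSCs kept with TESR and 0 and 0 with cjPSCM. In pre-ME + ActA it was near the floor, at 1.64 and 0.531 against 2.50 and 4.21. That of KLHDC7A was 7.34, and it was at 434 and 536 against 1.88 and 2.96 in cjiPSCs, but at 3.28 and 3.18 against 3.34 and 1.40 in pre-ME + ActA. In cjiPSCs MFAP4 (6.51) was at 12.1 and 16.4 against 0 and 0 and CBLN1 (6.25) at 71.6 and 75.9 against 0 and 2.96. CBLN1 was low in pre-ME + ActA, at 2.74 and 3.72 against 2.50 and 7.02. The interaction of CXCL14 was 6.16. CXCL14, a chemokine, was at 52.9 and 174 with TESR and 8.48 and 7.41 with cjPSCM before induction and at 9.30 and 4.78 against 37.5 and 37.9 after it. Its call in pre-ME + ActA was lost without replicate 1 of cjPSCM origin or replicate 2 of TESR origin. The opposite sign was found for SCML4 (-7.76), HAMP (-6.77), CALHM5 (-6.64), ARSD (-6.34) and RAB17 (-6.31). HAMP, the iron hormone hepcidin, was at 0 and 0 in cjiPSCs kept with TESR, 23.5 and 35.6 with cjPSCM, and 4.38 and 2.65 against 6.68 and 11.2 in pre-ME + ActA. Both libraries of at least 1 group had 0 counts for IL2RB, MFAP4, SCML4, HAMP and ARSD.

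Between the inductions the interaction was positive for LRRTM1 (2.91), NKX2-3 (2.89), ISM1 (2.17), ADRA1B (2.00) and CCDC85A (1.96). LRRTM1 was at 31.3 and 33.2 in TESR origin and 298 and 319.98 in cjPSCM origin without ActA, and at 2.19 and 6.90 against 280.4 and 403 with it. ISM1 was at 111 and 118 against 27.1 and 25.8 without ActA and at 135 and 201 against 219 and 131 with it. It was negative for LOX (-3.62), RAB17 (-3.33), VWDE (-3.28), ADM (-3.03) and HHIP (-2.83). ADM, the vasodilator adrenomedullin, was at 19.2 and 19.2 against 185 and 248 without ActA and at 91.9 and 59.4 against 113 and 94.1 with it, and it was called higher in cjPSCM origin without ActA and not called with it. RAB17 was at 58.6 and 22.8 against 18.4 and 19.7 with ActA and at 6.58 and 7.95 against 27.1 and 42.6 without it. With some single libraries left out, fewer genes passed in either direction than are named here, so not all kept this interaction call.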

How the results depend on the processing

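The 424 higher and 227 lower genes stayed within 1.5 times under DESeq2, other size factors, other filters, fewer libraries in the fit, thinned counts and each library left out. glmTreat, which tests against the fold threshold itself, called 111 and 27. Of 134 called genes among those named, 95 kept both thresholds in every alternative followed for single genes that gave a value. None of the 134 changed sign in these, and glmTreat was not among them. DESeq2 gave no adjusted p for some low genes, which were not counted as lost. Without the filter on low counts the medium difference between cjiPSCs and pre-ME + ActA was larger for 733 and smaller for 1011 genes, with thinned counts smaller for 333, and with 1 library left out larger for 171 to 1074 and smaller for 190 to 1158. For the induction with against without ActA, DESeq2 gave 149 larger and 185 smaller, no filter 268 and 467, thinned counts 15 and 20, and single omissions 2 to 28 and 4 to 25. With cjiPSCs as the reference the larger and smaller counts were 1012 and 1042 without replicate 1 of TESR cjiPSCs, 955 and 1158 without replicate 1 of cjPSCM cjiPSCs, 1074 and 1032 without replicate 2 of cjPSCM cjiPSCs, 171 and 190 without replicate 1 of cjPSCM pre-ME + ActA, 306 and 236 without replicate 2 of cjPSCM pre-ME + ActA, 210 and 196 without replicate 1 of TESR pre-ME + ActA and 261 and 305 without replicate 2 of TESR pre-ME + ActA. With pre-ME without ActA as the reference they were 2 and 7 without replicate 1 of cjPSCM pre-ME + ActA, 6 and 9 without replicate 2 of cjPSCM pre-ME + ActA, 28 and 24 without replicate 1 of cjPSCM pre-ME without ActA, 2 and 9 without replicate 2 of cjPSCM pre-ME without ActA, 8 and 17 without replicate 1 of TESR pre-ME without ActA, 3 and 4 without replicate 2 of TESR pre-ME without ActA, 3 and 11 without replicate 1 of TESR pre-ME + ActA and 13 and 25 without replicate 2 of TESR pre-ME + ActA. The cause was not tested. Of genes called in cjiPSCs 452 were called the same way in pre-ME + ActA, or 794 with the adjusted p alone.

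With a replicate block the main comparison gave 428 and 229 genes, and the interaction with cjiPSCs 455 and 494. The block was not read as a pairing, since libraries of the same number did not deviate together over genes (correlation -0.024).

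Some uncalled genes changed sign, among them MYH6 and PTPRC, which had 4 counts or fewer in each of the 4 libraries. With thinned counts the log2 fold change was -0.46 for CBLN1, -0.11 for DLL1, -0.024 for ISM1 and 0.48 for MSX2. The ranges over single omissions follow. They were CBLN1 -0.36 to 1.07, DNMT1 -0.018 to 0.24, FOXA2 -0.24 to 0.87, GATA3 -0.047 to 0.47, GATA6 -0.54 to 0.25, HOXB1 -0.91 to 0.29, ISM1 -0.39 to 0.38, KLF5 -0.41 to 0.074, KLHDC7A -1.17 to 0.037, MYH6 -3.43 to 3.33, PTPRC -3.06 to 0.034, SQLE -0.18 to 0.0021, TFAP2A -0.065 to 0.60 and WNT3A -1.18 to 0.17.

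The shallower cjPSCM library had 8193936 reads on genes, and the shallowest library of the fit, to which counts were thinned, 4784964. With 2 libraries per group of 1 line, the p-values describe these cultures.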

Other observations

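Gene groups without a call were found as well. Of 47 ephrin and semaphorin genes 0 were called, with 6 higher and 8 lower at the adjusted p alone from edgeR's test, near the shares of 13.2% and 14.2% among all genes tested. SEMA3A, a secreted guidance cue, came closest, at 809 and 651 in TESR origin and 198 and 178 in cjPSCM origin (-1.97 ± 0.25). Of 24 genes of cholesterol synthesis and uptake 0 were called, with 2 higher and 8 lower at the adjusted p alone. Of 9 tested late germ cell genes TDRD9, a helicase of the piRNA pathway, was lower, at 82.6 and 69.5 against 7.51 and 7.02 (-3.37 ± 0.52), whereas DDX4 had 0 counts in all 4 libraries and DAZL between 1 and 7.

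In the gene order of another marmoset assembly, 5 runs of 3 neighbouring tested genes were called the same way. NRGN, VSIG2 and ESAM, then CNTNAP1, CCR10 and PLEKHH3, and BRINP3, LOC103789070 and RGS13 were higher in cjPSCM origin. ISLR2, ISLR and STRA6 were lower, as were HOXC4, HOXC6 and HOXC8. Among these genes ISLR lost its call in 5 alternatives, ISLR2 without replicate 2 of TESR origin, STRA6 without that library or replicate 1 of cjPSCM origin, and RGS13 with thinned counts. NRGN was at 568 and 676 in TESR origin and 2648 and 3026 in cjPSCM origin, VSIG2 at 4.93 and 5.31 against 45.9 and 56.2, and PLEKHH3 at 48.2 and 35.6 against 266 and 284. ISLR2 was at 50.3 and 122 against 20.03 and 7.02. Over 23 chromosomes with at least 50 tested genes, the median log2 fold change lay between -0.26 and 0.28. The chromosome with the highest median had 0.15 in cjiPSCs and -0.06 in pre-ME without ActA, and that with the lowest -0.13 and -0.01. Windows of 50 neighbouring genes had medians between -0.51 and 0.64.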
